A study of Sus scrofa with 12 samples.

Results

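The genes described here encode the proteins of the cytosolic ribosome. They were chosen by name: a gene was taken if the platform annotation gave one of its probe sets a single symbol, and that symbol was RPSA, RPLP0, RPLP1 or RPLP2, or RPL or RPS followed by digits and at most 1 further letter. This found 59 of the 6765 genes named on the array, 31 of the large subunit, 25 of the small subunit and 3 of the P stalk, and each was represented by the probe set with the highest mean over the 12 arrays. A filter on low signals kept 57 of the 59, and it removed RPL30 and RPS15A.

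Each ribosome joins a small subunit, which reads the messenger RNA, to a large subunit, which forms the peptide bonds, and most of their proteins are made in equal numbers. Messages for these proteins begin with a run of pyrimidines, and their translation is controlled by the kinase mTOR through proteins that bind this start. Sirolimus and its analog zotarolimus, in which a tetrazole ring replaces a hydroxyl, inhibit the mTORC1 complex when bound to FKBP12. The arrays measure messages and not their translation.

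RNA came from coronary arteries of Yorkshire farm pigs, taken 28 days after angioplasty and stent implantation. Bare metal stents (BMS), sirolimus-eluting stents (SES) and zotarolimus-eluting stents (ZES) were each represented by 4 arrays from 2 pigs, and every pig carried 1 stent type. Tissue was dissected from the stents by hand, so each array is a bulk sample of several cell types, and drug doses are unstated in the labels. The BMS and ZES pigs each gave a right coronary artery (RCA) and a left anterior descending artery (LAD) segment, in that order as arrays 1 and 2 and as arrays 3 and 4. SES 1 was a left circumflex segment, SES 2 an RCA segment of the same pig, SES 3 an RCA and SES 4 a LAD segment of the other. The p-values measure the spread between segments, of which each pig gave 2, and a pig's own level cannot be told apart from its stent type beyond the 2 pigs per type. The labelled tissue was checked through 10 smooth muscle markers, whose mean log2 signal lay between 9.61 and 13.9 on all 12 arrays. No sequence is printed, since the reference tables used here hold none for these genes.

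The ribosomal protein probe sets were among the brightest on every array. The median of the 59 genes lay at a percentile of 99.56 to 99.69 of all probe sets, and 55 of them had a mean log2 signal above 12. Together they made up between 7.71% (ZES 1) and 15.4% (BMS 3) of the summed linear signal. The 3 brightest were RPS18 of the small subunit head, RPS25, which some viral messages need to start translation, and RPL38, which in mice is needed to translate certain Hox messages. The 4 dimmest were RPL30, RPS15A, RPL26 and RPL37, for which the array gives little. RPL30 was above the array's background on 2 arrays, RPS15A on 3, RPL26 on 9 and RPL37 on all 12.

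The bright ribosomal protein genes moved up and down together from array to array. The mean of the 55 was 16.24, 15.75, 16.21 and 15.63 on the BMS arrays, 15.40, 15.18, 15.40 and 15.77 on the SES arrays and 14.63, 15.71, 15.61 and 15.95 on the ZES arrays. BMS 1 and BMS 3, the RCA segments, were highest, ZES 1 was lowest, and all 3 groups overlapped. ZES 1 was the lowest array for 51 of the 55 genes, while BMS 1 and BMS 3 were each the highest for 25. The first component of the 55 genes over the arrays held 84.3% of their variance and the next held 7.14%.

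**Figure D1:**
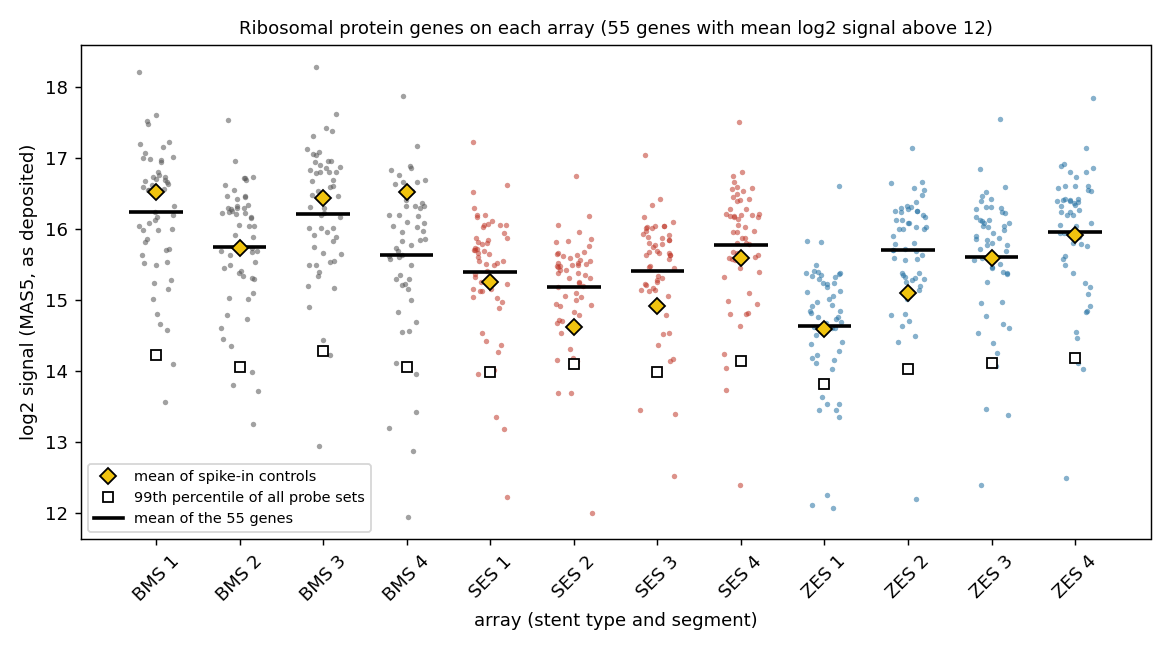
Log2 signal (vertical axis, as deposited) of 55 ribosomal protein genes on each of the 12 arrays (horizontal axis), with 1 point per gene, grey for BMS, red for SES and blue for ZES. Bars give the mean of the 55, diamonds the mean of 18 spike-in controls and squares the 99th percentile of all probe sets; the genes sit highest on BMS 1 and BMS 3 and lowest on ZES 1, and the spike-in mean has its lowest value on ZES 1 and its highest values on BMS arrays.

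The hybridization controls, bacterial and phage transcripts that are normally added to the hybridization mix in fixed amounts, were also lowest on ZES 1. They were high on BMS 1 and BMS 3 too, but did not follow the genes on every array. The mean of the 55 genes less that of the controls ran from -0.89 on BMS 4 to 0.62 on ZES 2. The mean of 18 spike-in probe sets was 16.53, 15.74, 16.44 and 16.53 on the BMS arrays, 15.25, 14.62, 14.91 and 15.59 on the SES arrays and 14.59, 15.09, 15.59 and 15.91 on the ZES arrays. As read from the values, the mean linear signal with 2% trimmed at each end was between 500.15 and 500.17 on all arrays. On each array, 52 to 55 of the 55 bright genes lay in the top 2% and so outside the part that was held equal. The part of this scaling in the differences between stent types was not tested beyond the alternatives given below.

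The first question was whether sirolimus elution went with other ribosomal protein messages than bare metal. No gene passed an adjusted p of 0.05 (limma), against 0.494% of all 16799 probe sets tested that were higher with SES and 0.185% that were lower. At an unadjusted p under 0.05, 20 of the 57 were lower and 0 higher, where 7.01% of all probe sets were lower and 7.33% higher. The SES minus BMS differences of all 57 were negative on the deposited scale with a median of -0.51 on log2, against 51.2% of all probe sets and a median of -0.020. After quantile normalization, however, 31 were positive and 26 negative with a median of 0.018. With a covariate for the spike-in level 51 were positive with a median of 0.31. The spike-in means did not overlap between BMS (15.74 to 16.53) and SES (14.62 to 15.59). With this covariate 0 of all probe sets had an adjusted p under 0.05 (limma), in place of 114. Spike-in level and stent type thus cannot be told apart in this comparison. Quantile normalization gives the highest ranks the same values on every array. A shift shared by all the brightest probe sets is thus removed by its construction, while a change of rank among them is kept. The median percentile of the 59 genes averaged 99.66 with BMS and 99.68 with SES. Over 38 alternatives the median stayed negative in 36, among them centring on the 75th percentile (-0.52) and the 99th percentile (-0.41), and turned positive with quantile normalization and the spike-in covariate. Some of the 36 could not move it. Dropping the pig block or the variance trend, averaging per pig or leaving out ZES arrays gave the same -0.51. With artery added as a term, 8 of the 57 had an unadjusted p under 0.05 (limma), and the share of all probe sets at that threshold was not counted. At an adjusted p under 0.05, 0 of the 57 were called, beside 7 of all probe sets in place of 114.

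RNA quality and cell type markers also differed between the groups. The 3-prime minus 5-prime gap of the GAPDH control was 3.64 to 4.63 with BMS, 2.33 to 3.02 with SES, with no overlap, and 3.44 to 3.91 with ZES. With this gap as a covariate, 0 of the 57 had an unadjusted p under 0.05 (limma) and the median was -0.64. The share of all probe sets at that threshold was not counted. At an adjusted p under 0.05, 0 of all probe sets were called, in place of 114. Gap and stent type thus cannot be told apart here. Of the smooth muscle markers, 10 of 12 were tested, none passed the threshold (limma) and all 10 had negative differences, SES minus BMS, with a median of -2.12. Their mean was 12.3 to 13.3 with BMS, 9.61 to 12.5 with SES and 10.6 to 13.9 with ZES. Of the T and NK cell markers, 6 of 12 were tested, with a median of 2.07 for SES and 1.37 for ZES against BMS. Of the 6, 5 were higher and 1 was lower with SES than with BMS, and 4 and 2 with ZES. CD3E, a part of the T cell receptor complex, and SH2D1A, a signalling adaptor of T and NK cells, were the 2 past the threshold, both higher with SES (limma). The mean of the 6 was 4.54 to 5.48 with BMS, 6.46 to 7.90 with SES and 5.06 to 7.17 with ZES. Of the neutrophil markers, 3 of 6 were tested and none passed, with medians of 3.48 for SES and 2.88 for ZES against BMS and a mean of 4.34 to 8.10 with BMS, 7.40 to 12.002 with SES and 5.12 to 11.5 with ZES. Of the endothelial markers, 6 of 7 were tested and none passed, with medians of 0.90 for SES and 1.16 for ZES against BMS. With SES 5 of the 6 were positive, and with ZES all 6. Their mean was 5.84 to 6.34 with BMS, 6.57 to 7.42 with SES and 7.04 to 8.30 with ZES. Neither drug group overlapped BMS. None of the cardiomyocyte, fibroblast, B and plasma cell or macrophage markers tested passed. Their array means overlapped between BMS and both drug groups. No tested marker of the smooth muscle, T and NK cell, neutrophil and endothelial lists was listed at 0 on any array. The lowest background of any array was 4.15. The lowest values of CD3E (0.50), MYLK (0.91), CD8A (1.51), S100A8 (1.92) and S100A9 (2.26) lay below it. Those of CDH5, LCK, VWF, CLDN5 and SH2D1A did so too. The BMS arrays had a higher background, 5.27 to 5.96. The T and NK cell means of BMS 1, BMS 2 and BMS 3 lay below the background of their own array. So did the neutrophil means of BMS 1 and BMS 2 and the endothelial mean of BMS 1. Differences from BMS in these lists are thus in part measured from values near background. The part of RNA quality and cell type in the ribosomal protein differences was not tested. In these bulk samples, fewer cells rich in ribosomes and less message per cell cannot be told apart.

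On the deposited scale, the 24 small subunit genes tested had a median difference of -0.65, the 30 large subunit genes -0.49 and the 3 P stalk genes -0.34. The median standard error was 0.29 for 1 gene. Medians by subunit were not computed after quantile normalization, where RPLP0, RPLP1 and RPLP2 had 0.12, -0.25 and -0.17. The order of the subunits is thus given for the deposited scale only. On the single arrays, 15 of the 57 (26.3%) had all 4 SES values below all 4 BMS values, where 4.51% of all probe sets did, and 0 had them above, where 4.23% did. With quantile normalization 3 were above (RPL17, RPS18 and RPS4X) and 1 was below (RPS21), where 4.69% and 3.51% of all probe sets were.

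**Figure D2:**
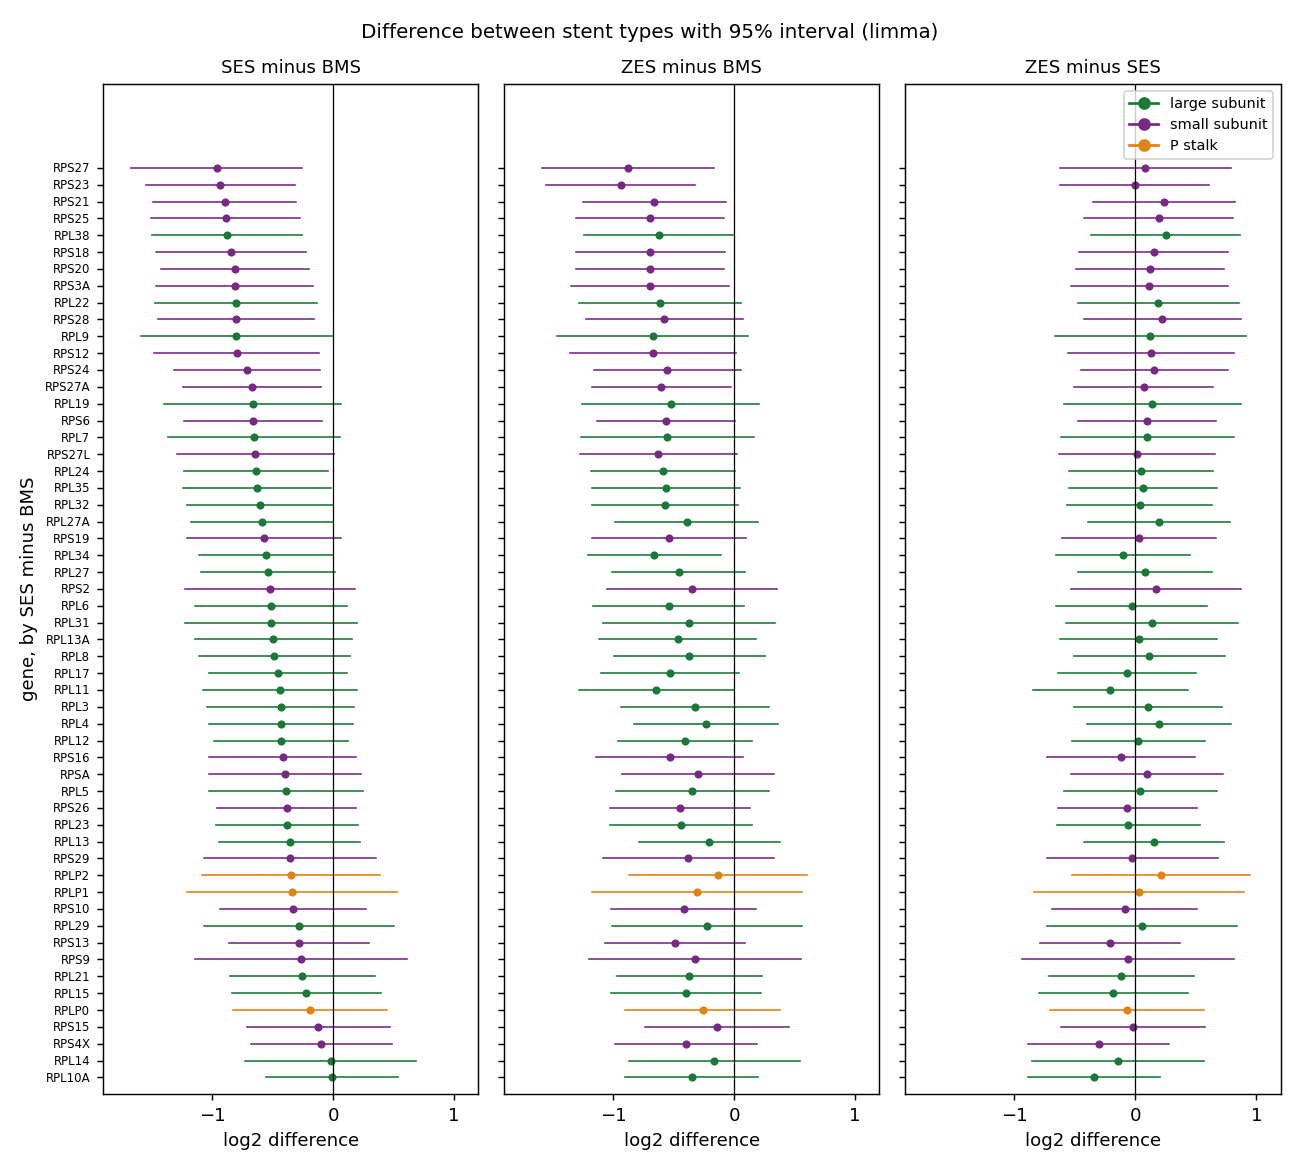
Log2 difference (horizontal axis) between stent types for 55 ribosomal protein genes (rows, ordered by SES minus BMS), with points for the limma estimate and lines for the 95% interval, coloured by subunit; the dim RPL26 and RPL37 are left out. On the deposited scale shown, all points lie below 0 against BMS in both drug groups and on either side of 0 for ZES minus SES; with quantile normalization the medians of the 55 in the first and second panel are 0.018 and -0.028.

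Small subunit genes led the list on the deposited scale. RPS27, a zinc finger protein of the subunit, read 17.61, 16.72, 17.38 and 16.84 with BMS, 16.29, 15.62, 16.04 and 16.75 with SES and 15.32, 16.55, 16.31 and 16.86 with ZES. It had the most negative difference, -0.96 ± 0.34 (SE, n = 4 per type; limma adjusted p = 0.184), and SES 4 and ZES 4 reached the range of the BMS arrays. RPS23, a protein of the decoding centre, read 17.22, 16.62, 16.81 and 16.88 with BMS, 15.95, 15.25, 16.04 and 16.57 with SES and 15.36, 16.17, 16.02 and 16.24 with ZES. No BMS array overlapped either drug group for RPS23, at -0.93 ± 0.29 for SES minus BMS (limma adjusted p = 0.142), which is 52.4% of the BMS level.

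RPS21, which takes part in maturation of the small subunit, read 16.97, 16.33, 16.87 and 16.33 with BMS, 15.64, 15.32, 15.74 and 16.20 with SES and from 15.37 (ZES 1) to 16.40 (ZES 4) with ZES. The SES arrays lay below the BMS arrays, at -0.90 ± 0.28 (limma adjusted p = 0.140, the lowest of the 57), and ZES 4 overlapped them. It was also the gene that stayed below BMS on all SES arrays after quantile normalization, with a difference of -0.28. RPS25 read 17.52, 16.96, 17.61 and 17.17 with BMS, 16.52, 16.06, 16.33 and 16.80 with SES and 15.84, 16.65, 16.85 and 17.14 with ZES. Its SES minus BMS difference was -0.89 ± 0.29 (limma adjusted p = 0.160), and 0.0099 after quantile normalization. RPS18 read 18.21, 17.54, 18.28 and 17.87 with BMS, 17.22, 16.75, 17.05 and 17.51 with SES and 16.60, 17.14, 17.55 and 17.84 with ZES. Its difference of -0.84 ± 0.29 (limma adjusted p = 0.181) became 0.23 after quantile normalization.

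RPS6, the substrate of the S6 kinases downstream of mTORC1, read 16.68, 16.29, 16.95 and 16.63 with BMS, 16.05, 15.66, 15.92 and 16.28 with SES and 15.42, 16.08, 16.25 and 16.55 with ZES. The SES arrays lay below all BMS arrays, although SES 4 and BMS 2 nearly met, with a difference of -0.66 ± 0.27 (limma adjusted p = 0.263) and 0.051 after quantile normalization. RPS27A, made as a fusion with ubiquitin, had a difference of -0.67, RPS19, mutated in Diamond-Blackfan anaemia, -0.57, and RPSA, also known as the laminin receptor, -0.40. RPS4X, the small subunit protein encoded on the X chromosome, stood at the other end. It read 15.54, 15.41, 15.65 and 15.58 with BMS, 15.51, 15.24, 15.45 and 15.61 with SES and 14.28, 15.15, 15.56 and 15.61 with ZES, a difference of -0.096 ± 0.28 for SES minus BMS. Its SES and BMS arrays overlapped on the deposited scale.

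RPS27L, a paralog of RPS27 that is induced by p53, was ordered differently across the arrays. It read 13.57, 13.25, 12.94 and 11.95 with BMS, 12.23, 12.01, 12.52 and 12.39 with SES and 12.11, 12.20, 12.40 and 12.50 with ZES. The BMS values were spread by pig, with both arrays of the first pig above all others and BMS 4 below all drug-eluting arrays. The differences were -0.64 ± 0.31 for SES (limma adjusted p = 0.353) and -0.63 ± 0.31 for ZES. They ranged from -1.05 to -0.45 and from -0.77 to -0.47 over the 19 alternatives that left out no array or pig of the groups compared. Leaving out BMS pig 2 brought the SES difference to -1.12 (limma adjusted p = 0.0477), and leaving out BMS pig 1 brought it to -0.16 (limma adjusted p = 0.867).

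In the large subunit the most negative difference among the bright genes was that of RPL38. It read 17.48, 16.69, 17.42 and 16.70 with BMS, 16.20, 15.83, 16.10 and 16.66 with SES and 15.82, 16.48, 16.60 and 16.91 with ZES. All SES arrays lay below the BMS arrays, although SES 4 nearly met BMS 2, and the difference was -0.88 ± 0.29 (limma adjusted p = 0.167). RPL22, which also binds RNA outside the ribosome, had a difference of -0.80 (limma adjusted p = 0.244). RPL5 and RPL11, which join the smallest ribosomal RNA and bind MDM2 when free of the ribosome, had differences of -0.39 and -0.44. RPL11 read 17.02, 16.74, 17.12 and 16.67 with BMS, 16.61, 16.18, 16.42 and 16.59 with SES and 15.22, 16.66, 16.29 and 16.80 with ZES. Its SES arrays lay below its BMS arrays without overlap, and its ZES arrays did not.

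RPL3, a core protein near the peptidyl transferase centre, had a difference of -0.43, and RPL13A, also a part of an interferon-responsive translation inhibitor, -0.49. RPL10A, a protein of the L1 stalk, read 15.50, 15.45, 15.74 and 15.36 with BMS, 15.61, 15.47, 15.46 and 15.46 with SES and 14.38, 15.29, 15.37 and 15.58 with ZES. The BMS and SES values overlapped, with a difference of -0.0099 ± 0.26 that was positive under quantile normalization (0.42) and median centring (0.18). RPL14, chosen after its values were seen, was similar at -0.020 ± 0.34. The dim RPL37 had -0.87 ± 0.59, and RPL26, a binder of p53 messages, had no usable estimate, since its arrays ran from 0.83 to 8.57.

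The P stalk, where RPLP1 and RPLP2 dimers on RPLP0 recruit elongation factors, had a less negative median on the deposited scale. RPLP0 read 15.52, 15.03, 15.53 and 14.69 with BMS, 14.88, 14.83, 14.96 and 15.32 with SES and 14.04, 15.33, 14.97 and 15.38 with ZES. The groups overlapped, and the difference, SES minus BMS, was -0.19 ± 0.30 (limma adjusted p = 0.812), 0.12 after quantile normalization and 0.52 with the spike-in covariate. RPLP1 and RPLP2 stood at -0.34 ± 0.41 and -0.35 ± 0.35, and at -0.25 and -0.17 after quantile normalization.

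The differences grew with the signal. Across the 55 bright genes, which share the 12 arrays, the difference, SES minus BMS, had a Spearman correlation of -0.73 (Pearson -0.59) with the mean signal of the probe set. The 27 brighter genes had a median of -0.67 and the 28 dimmer ones -0.36. After quantile normalization the correlation was 0.15 and the medians were 0.0099 and 0.020. For ZES minus BMS the Spearman correlation was -0.70 on the deposited scale and 0.48 after quantile normalization.

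**Figure D3:**
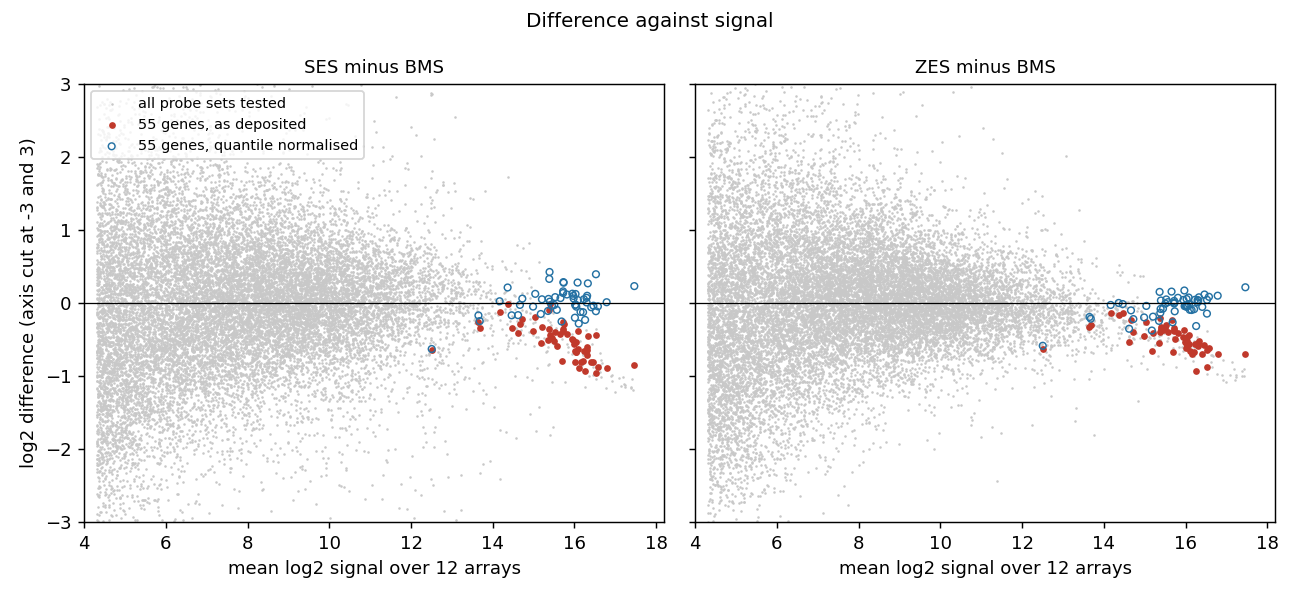
Log2 difference (vertical axis, limited to -3 to 3) against mean log2 signal over the 12 arrays (horizontal axis), for SES minus BMS and ZES minus BMS; grey points are all probe sets tested, filled red points 55 ribosomal protein genes on the deposited scale and open blue points the same genes after quantile normalization. The red points lie below 0 and lower at higher signal, and the blue points lie on both sides of 0, with medians of 0.018 and -0.028.

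The second question was the same for zotarolimus. No ribosomal protein gene passed the threshold for ZES minus BMS (limma), and the percent of all probe sets that did was 0 in either direction. At an unadjusted p under 0.05, 11 of 57 were lower and 0 higher, against 4.27% of all probe sets lower and 4.72% higher. This count of 11 ran from 1 to 30 with 1 array left out and from 2 to 40 with 1 pig left out, and it was 2 with means per pig. The count of 20 for SES minus BMS ran from 7 to 27 and from 0 to 30, and it was 11 with means per pig. The share of all probe sets at the unadjusted threshold was not counted under these alternatives. At an adjusted p under 0.05 (limma), calls among all probe sets for SES minus BMS ran from 0 to 415 and from 1 to 405. The 57 differences were again all negative on the deposited scale, with a median of -0.52 against -0.014 over all probe sets, while quantile normalization gave 22 positive, 35 negative and a median of -0.035, and the spike-in covariate gave 49 positive and a median of 0.19. These differences share the BMS arrays with those of SES, so the 2 comparisons are not independent. Without ZES 1 the median was -0.23, without both arrays of that pig -0.15, and without the other ZES pig -0.83.

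Of the 57, 3 (5.26%) had all ZES arrays below all BMS arrays, against 2.23% of all probe sets, and 0 had them above, against 1.58%. The 3 were RPS23, RPS27A and RPL34, a large subunit protein named after its values were seen. RPS23 had a difference of -0.94 ± 0.29 (limma adjusted p = 0.405, the lowest of the 57). RPS27 had -0.88 ± 0.34, RPS25 -0.69 ± 0.29 and RPS3A, a small subunit protein, -0.69 ± 0.31. RPL26 had -1.08 ± 1.40, an error that covers its whole difference. RPS6 stood at -0.57 ± 0.27 (limma adjusted p = 0.558). By subunit the medians on the deposited scale were -0.56 for the small, -0.46 for the large and -0.26 for the P stalk.

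The third question was whether the ribosomal protein messages differed between the drugs, which were measured at the same 28 days and at unstated doses. No gene passed the threshold (limma), against 0.0298% of all probe sets higher with ZES and 0.0417% lower. At an unadjusted p under 0.05, 0 of 57 were called, against 5.66% of all probe sets higher and 4.38% lower. Arrays without overlap were found for 0 of 57, against 2.94% of all probe sets higher and 3.06% lower. The median difference, ZES minus SES, was 0.055 on the deposited scale, with 37 positive and 20 negative, and -0.039 after quantile normalization; all probe sets had a median of -0.022. It was 0.33 without ZES 1 and -0.24 without the second ZES pig.

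The most negative differences between the drugs were those of RPL26 at -1.08 ± 1.40, RPL10A at -0.34 ± 0.26, RPS4X at -0.30 ± 0.28, RPS13 at -0.21 and RPL11 at -0.21. The most positive were RPL37 at 0.27 ± 0.59, RPL38 at 0.25 ± 0.29, RPS21 at 0.24, RPS28 at 0.22 and RPLP2 at 0.21. The lowest adjusted p was 0.718 (limma), for RPL10A. Among the 55 bright genes the 95% intervals reached down to -0.94 (RPS9) and up to 0.95 (RPLP2), so differences of that size between the drugs are within the error and the test does not show that they act alike. RPL10A and RPS4X became -0.51 and -0.46 after quantile normalization. Without ZES 1 they were -0.084 and -0.012, and without both arrays of that pig -0.021 and 0.14.

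Over the 3 stent types together, 0 of 57 passed (limma F test), where 0.345% of all probe sets did, and 11 had an unadjusted p under 0.05, where 13.4% of all probe sets did, with RPS23 lowest at an adjusted p of 0.192. In SES minus BMS, 4 of the 38 alternatives gave 1 or 2 genes an adjusted p under 0.05. These were RPS21 and RPS23 with array weights, RPS23 without SES 4, RPS27L without BMS pig 2, and RPS18 and RPS25 without ZES pig 1. In these 4, the calls among all probe sets rose too, from 114 to 673 (4.01%), 415 (2.47%), 405 (2.41%) and 360 (2.14%). No alternative gave a call in ZES minus BMS or ZES minus SES.

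Beyond the common movement, a small set of genes departed from it. The second component was led by RPS9, RPLP1, RPL29, RPL14 and RPLP2, which were chosen here by their loading. These genes were low relative to the other ribosomal protein genes on BMS 4 and high on ZES 2 and, to a lesser degree, SES 2. On ZES 1 their relative values differed, at -0.62 for RPLP1, -0.40 for RPS9, -0.22 for RPL29, -0.014 for RPLP2 and 0.16 for RPL14. RPLP1 read 14.10, 13.98, 14.30 and 13.20 with BMS, 13.35, 13.69, 13.46 and 13.73 with SES and 12.08, 14.70, 13.47 and 14.11 with ZES. The control probe sets for the 3-prime and 5-prime ends of EF1A, whose gap is a sign of RNA quality, stood apart on some of the same arrays. The 3-prime minus 5-prime gap was 4.06 on BMS 4 and 3.58 on ZES 1, the highest values, and 1.55 on ZES 2, the lowest. The 3-prime end read 16.89, 15.61 and 16.28 on these arrays and the 5-prime end 12.83, 12.03 and 14.73. The part of RNA quality in the second component was not tested.

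**Figure D4:**
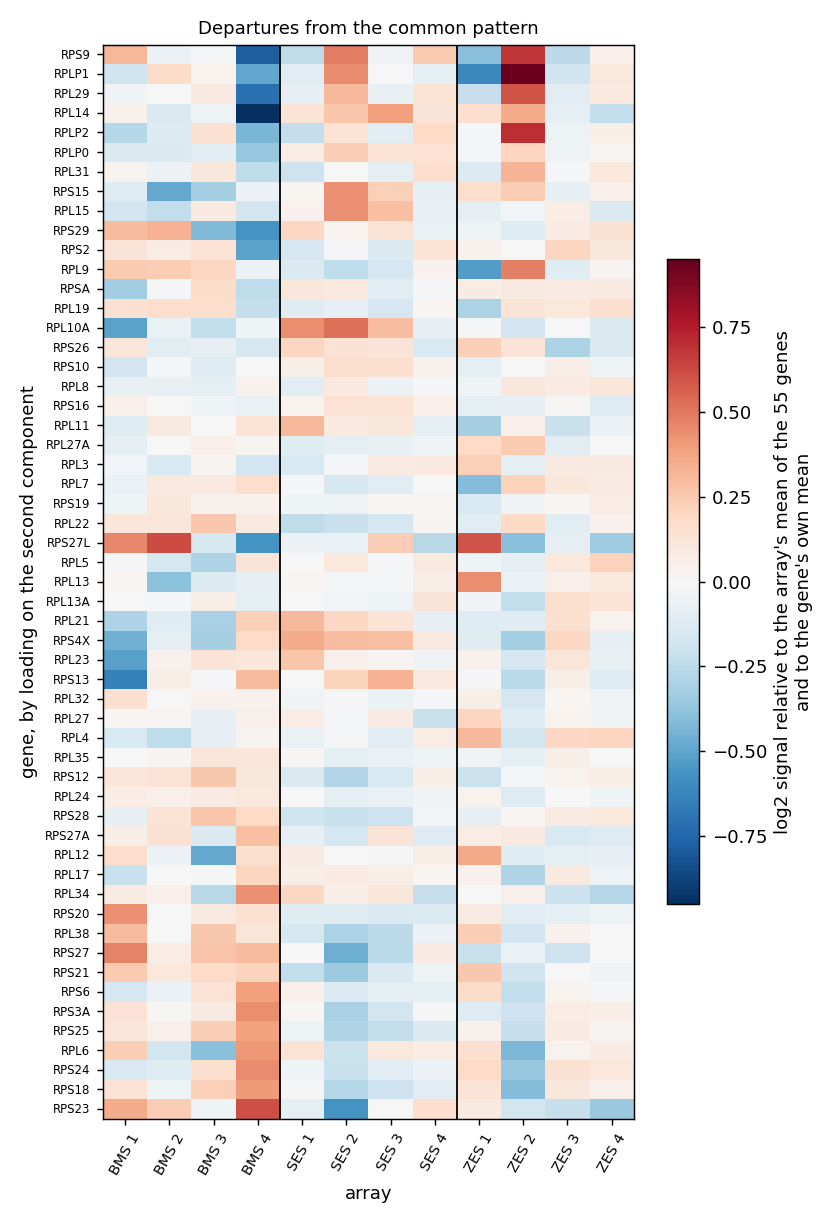
Log2 signal of 55 ribosomal protein genes (rows, ordered by loading on the second component) on the 12 arrays (columns), after removing the mean of the 55 on each array and the mean of each gene; red is above and blue below 0. The top rows, RPS9, RPLP1, RPL29 and RPL14, are low on BMS 4 and high on ZES 2, and RPS27L is high on BMS 1, BMS 2 and ZES 1.

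Of 26 further probe sets of the same genes, 18 had the same sign as the one used for SES minus BMS and 18 for ZES minus BMS, but 11 for ZES minus SES. Of 14 with a mean log2 signal above 12, 12 were negative for SES minus BMS and all 14 for ZES minus BMS, on the deposited scale. Of 12 at or below 12, 6 and 4 were negative. The genes whose probe sets differed most, SES minus BMS, were RPL35, RPLP0 and RPS25. For RPL35, a protein near the exit tunnel, they gave -0.63 and 1.83 ± 1.31, the latter at a mean log2 signal of 7.37. For RPS25 they gave -0.89 and 1.18 ± 0.82.

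The second RPLP0 probe set was above background on all 12 arrays. It read 11.28, 12.13, 12.31 and 12.02 with BMS, 8.65, 8.68, 8.78 and 11.67 with SES and 10.85, 13.29, 11.15 and 11.80 with ZES. SES 1, SES 2 and SES 3 lay more than 2 log2 units below every other array, SES 4 lay within the BMS range, and the difference was -2.49 ± 0.60 (limma adjusted p = 0.0634). The mean of 10 of 12 smooth muscle markers was 9.78, 9.61 and 10.10 on SES 1 to 3, 12.52 on SES 4, 12.3 to 13.3 with BMS and 10.6 to 13.9 with ZES. All 10 had negative differences, SES minus BMS, with a median of -2.12, and their part in this probe set's values was not tested. The array does not show whether this probe set reads RPLP0 or another message.

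**Figure D5:**
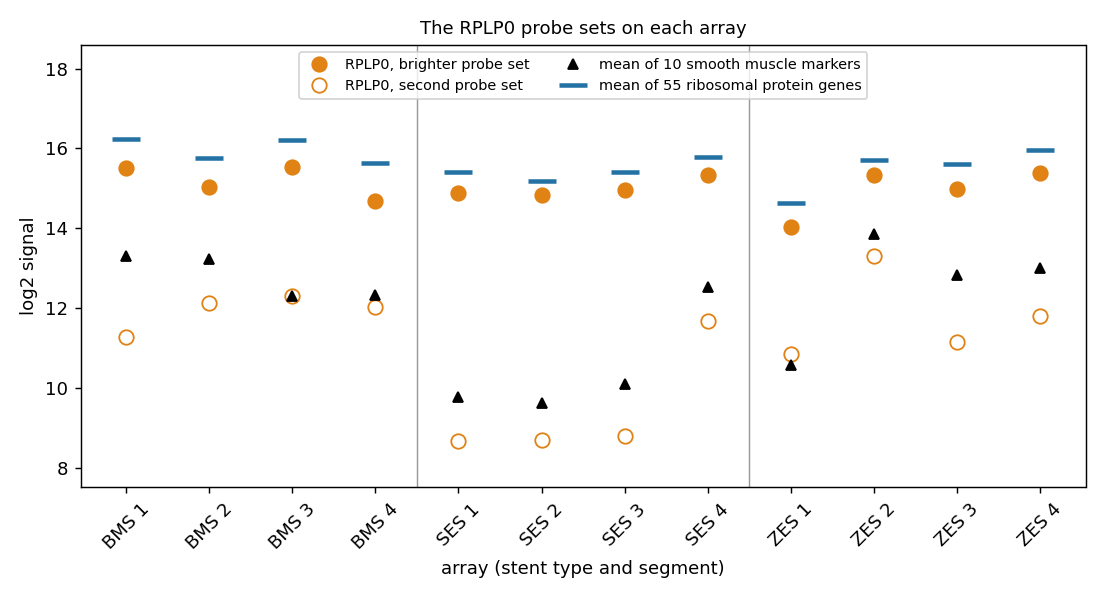
Log2 signal (vertical axis) of the 2 RPLP0 probe sets on the 12 arrays (horizontal axis), with the mean of 10 smooth muscle markers (triangles) and of 55 ribosomal protein genes (bars). The brighter probe set (filled) lies between 14.04 and 15.53, while the second (open) is at 8.65 to 8.78 on SES 1 to 3 and 11.67 on SES 4.

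Artery was compared within the 5 pigs that had both LAD and RCA segments. No ribosomal protein gene passed (limma), where the percent of all probe sets that did was 0, and 0 of 57 had an unadjusted p under 0.05 against 6.86%. The median difference, LAD minus RCA, was 0.15, with 53 positive and 4 negative, against 0.051 for all probe sets, of which 53.4% were positive and 46.6% negative. The mean over the 57 was -0.49 and -0.43 in the BMS pigs, 0.34 in the SES pig and 0.99 and 0.43 in the ZES pigs. LAD was thus the lower segment in both BMS pigs and the higher in the other 3. A test of whether the artery difference itself differed between ZES and BMS called 0 of the 57 (limma, lowest adjusted p = 0.710; 1 at an unadjusted p under 0.05), where 0 of all 16799 probe sets passed and 1150 had an unadjusted p under 0.05. Without the first ZES pig the median over all pigs was -0.070.

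Other parts of the translation machinery were measured beside these genes. The 58 mitochondrial ribosomal proteins, which build the separate ribosome of mitochondria, had 0 genes past the threshold (limma) and medians of -0.065 for SES and -0.13 for ZES against BMS, with 21 and 23 of the 58 positive. The 18 of 22 translation factors and ribosome partners that were tested, many with the same pyrimidine start, had 0 past the threshold and medians of -0.29 and -0.22. TPT1, a growth-related message of that class, had -0.70 ± 0.30 for SES minus BMS, and FAU, which carries a small subunit protein fused to a ubiquitin-like one, -0.49 ± 0.31. EEF1A1, the elongation factor that brings aminoacyl-tRNA, had 0.69 ± 0.28 and PABPC1, the poly(A)-binding protein, 0.088 ± 0.27. The 3-prime control probe set for EF1A, the product of that gene family, went the other way, with a mean of 16.88 with BMS and 16.16 with SES. None of these 4 passed the threshold.

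Genes that assemble the ribosome or sense nutrients had medians near or above 0. The 29 of 41 assembly factors tested had 0 past the threshold and medians of 0.17 for SES and 0.077 for ZES against BMS. NPM1, a nucleolar chaperone, had 0.17 ± 0.27 and FBL, the methyltransferase fibrillarin, 0.45 ± 0.33 for SES minus BMS. The 11 of 21 mTORC1 pathway genes tested had 0 past the threshold and medians of 0.12 and -0.11. The rest were not tested, among them MTOR, RPTOR, MLST8, DEPTOR, RPS6KB1, RPS6KB2, EIF4EBP1 and LARP1. The mitochondrial ribosomal protein genes had a mean log2 signal of 9.08 to 9.61 over the arrays, far below that of the cytosolic ones, whose negative differences grew with signal on the deposited scale.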

How the data were processed

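The authors deposited log2 signals of 24123 probe sets on 12 arrays. Per the submitters' processing notes, MAS5 and Affymetrix Expression Console 5.0 were used; the log base and the scaling were read from the values. Of the probe sets that are not among 124 controls, those in the lowest 30% by mean signal were dropped, leaving 16799. Values entered the fits as deposited, with no pseudocount. Stent types were fitted in limma 3.58.1 (R 4.3.3, statmod 1.5.0) over all 12 arrays, with the pig as a random block and a variance trend; LAD and RCA were compared within pigs. Two-sided p-values were adjusted by Benjamini-Hochberg over all probe sets, with a threshold of 0.05 and 95% intervals. The fits were tested on simulated data. The number of arrays limits the precision. Genes were named by a rule: those past the threshold, the 5 most positive and most negative in each stent comparison, the 3 brightest and dimmest, the 3 with the most different probe sets, and a panel. The genes and lists were chosen with earlier results of these data known. Alternatives covered scaling, covariates, filter, pseudocount, variance model, probe set choice, and arrays and pigs left out. Of the panel, RPL3L, RPL10, RPL23A, RPL41 and RPS3 are not analysed here, since no probe set carried their symbol alone.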

Additional observations from a re-analysis of the deposited data

Results flagged for a closer look

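Over the ribosomal protein genes and stent types, 8 of 171 sets of 4 arrays had 1 array far from the other 3, and chance gives about 1 in 20. In the BMS group, RPL12, at the base of the P stalk, was high on BMS 1 at 16.60 and RPL23 high on BMS 3 at 16.80. In the SES group, RPL10A was high on SES 1 at 15.61, and SES 4 was high for RPL8 at 15.59, RPLP2 at 14.80 and RPS2 at 15.79. In the ZES group, ZES 1 was low for RPL15 at 13.64 and RPS16 at 13.54. The second RPLP0 probe set stood apart on SES 4 as well, at 11.67 against 8.65 to 8.78 on the other SES arrays.

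The mean LAD minus RCA difference of the 57 genes had opposite signs in every BMS pig and every ZES pig, and the gap between the types, ZES less BMS, was 1.17 on log2. The difference in this mean was not tested; gene by gene, 0 of 57 differed between the types (limma, adjusted p of 0.710 or more).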

How the results depend on the processing

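Between stent types, no paired analysis was possible because each pig carried 1 stent type. LAD and RCA were compared within pigs. With artery as a term beside the pig block, added after seeing the data, the SES, ZES and between-drug medians were -0.45, -0.52 and 0.019, with 0 genes called; the only circumflex array, SES 1, then adds nothing to the comparison. The count of ribosomal protein genes changed, SES minus BMS, was 2 with array weights, 0 to 1 with 1 array left out (1 without SES 4), 1 without BMS pig 2 and 2 without ZES pig 1, beside 673, 415, 405 and 360 of all probe sets in place of 114. The median, SES minus BMS, was 0.018 with quantile normalization, 0.31 with the spike-in covariate and -0.24 with the 28S covariate; for ZES minus BMS it was -0.035 and 0.19 with the first 2. Genes without overlap numbered 4 (SES against BMS), 1 (ZES against BMS) and 2 (ZES against SES) with quantile normalization, where all probe sets gave 4.69% above and 3.51% below, 1.74% and 1.83%, and 2.82% and 3.55%, and 1 for ZES against BMS with median centring. The cause of these shifts was not tested.

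Of 568 single-gene values under alternatives, 534 kept their direction and side of the threshold, 6 newly passed it and 28 changed sign. The direction could not change where an alternative altered only the error or left out arrays outside the comparison. For SES minus BMS, quantile normalization gave RPS25 0.0099, RPS18 0.23, RPS6 0.051, RPLP0 0.12 and RPL10A 0.42. The spike-in covariate gave RPS27 0.18, RPS25 0.085, RPL38 0.013, RPS18 0.17, RPS6 0.19, RPLP0 0.52 and RPL10A 0.55. Median centring gave RPLP0 0.0009 and RPL10A 0.18, the 28S covariate RPLP0 0.16 and RPL10A 0.15, and averaged probe sets RPS25 0.012. RPL10A was also 0.0017 with array weights, -0.059 to 0.067 with 1 array left out, 0.030 without BMS pig 2, 0.029 without SES pig 2 and 0.089 with 99th percentile centring, an alternative added after seeing the data. For ZES minus BMS, quantile normalization gave RPS25 0.099 and the spike-in covariate RPS25 0.12 and RPS27 0.073. RPS4X, ZES minus SES, was 0.14 without ZES pig 1.

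Median centring moved the median of all probe sets, SES minus BMS, from -0.020 to 0.17, beside a ribosomal protein median of -0.32. With 2 pigs per stent type, pig and stent cannot be told apart for a single gene. MAS5 scaling does not hold the top of the signal range equal, the spike-in level differed between groups, and quantile normalization and the spike-in covariate were the only 2 of 38 alternatives that turned the SES median, the latter the only 1 that turned the ZES median. The spike-in means of BMS and SES did not overlap, so spike-in level and stent type cannot be told apart between them. Alternatives that changed only the error, or left out arrays outside the comparison, could not move these medians. The dim probe sets of RPL30, RPS15A, RPL26 and RPL37 limit what can be read for these genes.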

Other observations

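Genes for close relatives of ribosomal proteins whose symbols fall outside the naming rule had small differences, SES minus BMS, on the deposited scale. RPL22L1 stood at 0.15 ± 0.36, RPL7L1 at 0.12 ± 0.30, RPL36AL at 0.023 ± 0.24 and RPL26L1 at 0.017 ± 0.26 (SE, n = 4 per type), and none passed the threshold in limma. Against BMS, ZES gave -0.046, -0.27, -0.14 and -0.40 for the same genes. The second RPL38 probe set read 14.99 and 14.83 on the arrays of the first BMS pig and 13.48 on both arrays of the other, and 12.69 to 13.79 on the drug-eluting arrays.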
